A study of Mus musculus with 32 samples.

Results

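The 40 genes described here carry out DNA replication and mitosis. They were taken by symbol from 55487 mouse genes measured by RNA sequencing in 32 libraries of sorted muscle cells, and all 40 were found. The set holds 15 S-phase genes (Mcm2 to Mcm7, Pcna, Rrm1, Rrm2, Tyms, Gins2, Cdc6, Cdt1, Ccne1 and Ccne2), 22 mitotic genes (Mki67, Top2a, Tpx2, Ccna2, Ccnb1, Ccnb2, Cdk1, Cdc20, Plk1, Aurka, Aurkb, Bub1, Bub1b, Birc5, Cenpa, Cenpe, Cenpf, Kif11, Kif20a, Kif23, Ube2c and Prc1), and 3 others, Uhrf1, E2f1 and Tk1. All 40 passed the filter on low counts in each of the 17 comparisons made.

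A cell that divides first copies its DNA in S phase and then separates the copies in mitosis. Cdc6 and Cdt1 load the Mcm2 to Mcm7 helicase at replication origins, cyclin E (Ccne1, Ccne2) drives the cell into S phase, and Rrm1, Rrm2 and Tyms make the deoxynucleotides. Later, cyclin A and cyclin B with Cdk1 start mitosis, kinases such as Plk1, Aurka and Aurkb build and control the spindle, and Cdc20 with Ube2c directs the destruction of the cyclins. The S-phase genes are textbook targets of the E2F factors, and the mitotic genes are textbook targets of the DREAM and MuvB complexes. In injured muscle, satellite cells (the Pax7-positive muscle stem cells) and fibro-adipogenic progenitors (FAPs, the Pdgfra-positive mesenchymal cells of the interstitium) both divide in the first days after damage.

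Satellite cells and FAPs were sorted from the supraspinatus, a muscle of the rotator cuff, of wild-type male C57BL/6J recipients aged 12 weeks. Every muscle had first been damaged with cardiotoxin, which destroys muscle fibres. The BAT muscle of each mouse also received a graft of interscapular brown adipose tissue from a donor aged 3 weeks, and the control muscle of the same mouse had the toxin alone; a sham operation or a graft of another tissue was not analysed here. Both sorts took cells negative for CD45 and CD31, and integrin alpha 7 separated satellite cells (positive) from FAPs (negative). With 2 cell types, 2 treatments and cells taken at day 3 or day 7 from different mice, there were 8 groups of 4 libraries each. Values are given for replicates 1 to 4 in that order, in CPM (counts scaled to the library total), without further scaling. At day 3 these were mice 3a, 3b, the mouse without a code and 2b in satellite cells. In FAPs of day 3 they were 2b, 3a, 3b and the mouse without a code, so positions do not pair mice across cell types. At day 7 they were mice 1b, 3, 5 and 1a in both cell types. Differences are log2 values from edgeR's quasi-likelihood fit, which adds TMM scaling, with their standard error (SE). A gene was called where the Benjamini-Hochberg adjusted p over all genes tested was under 0.05.

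Library totals lay between 19.8 M and 46.4 M counts (median 25.7 M), so a count of 3 was worth at most 0.152 CPM. Pax7 was at 21 to 164 CPM in the satellite cell libraries and at 0 in 13 of the 16 FAP libraries, while Pdgfra was at 251 to 436 CPM in FAPs and at 0.101 to 19.1 CPM in satellite cells. Sca1, which the series lists as positive for both sorts, is encoded by Ly6a, which stood at 426 to 1162 CPM in FAPs and at 2.38 to 42.8 CPM in satellite cells. In 3 day 3 libraries (control satellite cells replicate 3, BAT satellite cells replicate 4 and BAT FAPs replicate 1), 18 macrophage genes summed to 2114 to 5927 CPM, against 17.2 to 215 CPM in the other 13. Both BAT libraries among the 3 came from the BAT muscle of mouse 2b. The BAT FAP library among them also held the satellite cell genes Myod1 (34.0 CPM) and Chrnd (10.2 CPM), and was the highest of its group for 26 of the 40 genes. The mouse of replicate 3 at day 7, coded 5 in the labels, had Xist at 163 to 355 CPM in its 4 libraries, against at most 0.161 CPM in the other 28, although the labels call all mice male. Ddx3y, a gene of the Y chromosome, was at 0 CPM in the 4 libraries of this mouse and at 29.1 to 108 CPM in the other 28. Counts of called genes are also given without these libraries. In sorted bulk samples, fewer dividing cells and less RNA per dividing cell cannot be told apart.

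The replication and mitosis genes stood highest in satellite cells at day 3 and lowest in FAPs at day 7. Together they took 0.673% ± 0.044 of all counts in day 3 control satellite cells and 0.442% ± 0.074 in those of day 7. In control FAPs they took 0.254% ± 0.041 at day 3 and 0.0758% ± 0.037 at day 7 (SD, n = 4 for each). The S-phase genes summed to 3188 ± 268 CPM, 2017 ± 256 CPM, 1043 ± 148 CPM and 381 ± 137 CPM in these 4 groups, in the same order, and the mitotic genes to 3227 ± 153 CPM, 2198 ± 495 CPM, 1337 ± 249 CPM and 330 ± 221 CPM. No library of a group reached into the range of the next group for either sum. That order of the group means, satellite cells at day 3, satellite cells at day 7, FAPs at day 3 and FAPs at day 7, was found for 33 of the 40 genes in control muscle and for 30 in BAT muscle. In both kinds of muscle 39 of the 40 had their lowest mean in FAPs at day 7. The exception was E2f1, a transcription factor that switches S-phase genes on.

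**Figure D1:**
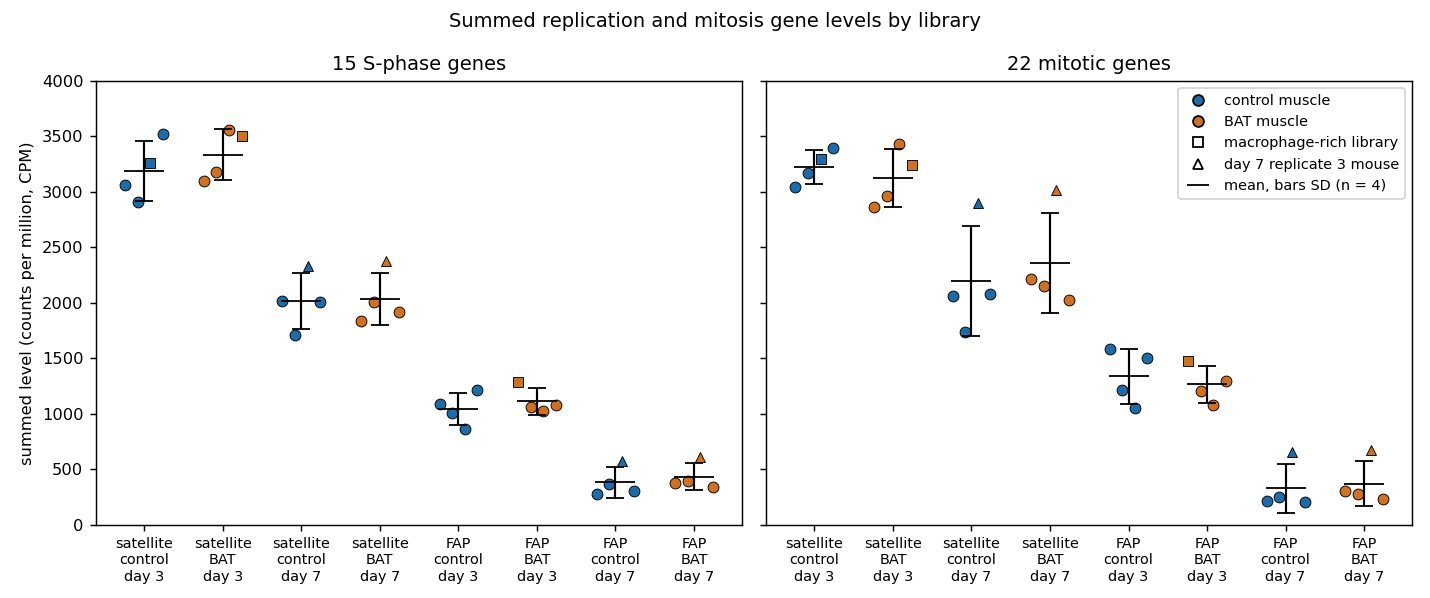
Summed level in CPM (vertical axis) of the 15 S-phase genes (left) and the 22 mitotic genes (right) in each of 32 libraries, in 8 groups of 4; points are libraries, horizontal marks the mean and bars the SD. Satellite cells lie above FAPs of the same day, day 3 lies above day 7 except for the mitotic genes of BAT satellite cells, where the days overlap (from 2861 CPM at day 3, up to 3021 CPM at day 7), and the triangles (the day 7 mouse of replicate 3) are the highest point of each day 7 group.

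Per kilobase of exon, Rrm2 led the 40 in control satellite cells at day 3 with 285 ± 29.9 CPM per kb. The length used merges all annotated exons of a gene (6089 bases for Tyms, 1531 for Ccnb2). It can exceed the transcript made, so the order of the genes depends on it. Rrm2 is the small subunit of ribonucleotide reductase, made in dividing cells. Ube2c (116 ± 9.96 CPM per kb), Ccnb2 (91.5 ± 4.84 CPM per kb) and Pcna (90.6 ± 5.31 CPM per kb) followed, and the levels of Ccnb2 and Pcna did not differ beyond their spread. The lowest were Cenpf at 5.43 ± 0.449 and E2f1 at 3.22 ± 0.558 CPM per kb (SD, n = 4 throughout). For 11 of the 40 an exon overlaps another gene, and the sources used here do not say whether reads were counted by strand. Among these, Ube2c overlaps the troponin gene Tnnc2 and Cdc20 overlaps Elovl1, both on the opposite strand, so that reads of the partners cannot be told apart. Ccnb1, Ccnb2, Pcna and Tyms have named pseudogenes with which they could share reads.

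The first comparison asked how the 2 sorted cell types differed in the same control muscles. At day 3, 38 of the 40 genes were higher in satellite cells and 1 was lower, where 71.7% of the 16329 genes tested were called, 35.8% higher and 35.9% lower. At day 7, 39 were higher and 1 lower, where 45.1% were called, 22.5% higher and 22.6% lower. The median difference of the 40 was 1.21 at day 3 and 2.34 at day 7 on the log2 scale, beside 0.03 and 0.05 over all genes tested. All 22 mitotic genes were called higher on both days. The S-phase gene not called at day 3 was Gins2, a subunit of the GINS part of the replicative helicase, which was 0.10 ± 0.08 higher (SE) with an adjusted p of 0.304 by edgeR.

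Rrm2 differed most at day 3. It stood at 751, 692, 838 and 875 CPM in control satellite cells and at 138, 110, 90.5 and 163 CPM in control FAPs, so the groups were far apart. Its log2 difference was 2.56 ± 0.11 (adjusted p = 3.34e-06). Ccne1, cyclin E1, followed at 2.45 ± 0.15 (adjusted p = 1.25e-05). Its level was 20.3, 17.8, 22.2 and 26.2 CPM in satellite cells and 3.46, 4.16, 2.96 and 4.02 CPM in FAPs. Mcm2, a helicase subunit, was at 171, 156, 193 and 245 CPM against 52.9, 40.5, 39.8 and 54.0 CPM, again with no overlap, and differed by 1.91 ± 0.09. The other helicase subunits differed by 1.06 (Mcm4 and Mcm5, SE 0.09 each) to 1.87 ± 0.09 (Mcm7). Pcna, the sliding clamp that holds the polymerases on DNA, was closer at 218, 235, 213 and 204 CPM against 77.7, 94.5, 77.4 and 91.9 CPM, a difference of 1.24 ± 0.10.

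Among the mitotic genes at day 3, Ube2c (1.83 ± 0.12) and Ccnb1 (1.69 ± 0.14) differed most and Ccnb2 (0.46 ± 0.13) least. Ccnb1, cyclin B1, stood at 247, 280, 238 and 240 CPM in satellite cells and at 79.7, 74.0, 55.9 and 78.8 CPM in FAPs. Cdk1, the kinase that cyclin B activates, stood at 288, 314, 298 and 255 CPM against 113, 108, 95.2 and 118 CPM. The proliferation marker Mki67 was at 89.5, 73.5, 99.0 and 98.9 CPM against 65.5, 33.7, 32.5 and 52.4 CPM, a difference of 0.91 ± 0.12 (adjusted p = 0.000434). All 4 satellite cell libraries were above all 4 FAP libraries for each of these genes. Plk1, the polo-like kinase, varied more within its group, from 96.0 to 176 CPM in satellite cells and from 30.3 to 77.9 CPM in FAPs.

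At day 7 the largest differences were those of Cdc6 and Ccna2. Cdc6, the loader of the helicase, was at 49.1, 53.4, 69.0 and 44.6 CPM in control satellite cells and at 2.86, 5.77, 7.75 and 1.82 CPM in control FAPs, a difference of 3.31 ± 0.30 (adjusted p = 0.000195). Ccna2, cyclin A2, was at 72.5, 58.2, 120 and 76.2 CPM against 3.78, 5.45, 22.5 and 3.18 CPM, a difference of 3.22 ± 0.37 (adjusted p = 0.000535). Top2a, the topoisomerase that untangles chromosomes, was at 316, 275, 529 and 293 CPM against 21.3, 29.2, 78.3 and 15.9 CPM. Replicate 3 was the highest library in both groups for Ccna2 and Top2a, and it was the highest for 28 of the 40 genes in control satellite cells and for 37 in control FAPs. Its 2 FAP libraries also held the satellite cell gene Myf5 at 4.4 and 4.86 CPM, against at most 0.135 CPM in the other day 7 FAP libraries, and the part of this in the result was not tested. Without mouse 5 all 40 genes were again called (39 higher and 1 lower), with Cdc6 at 3.52 ± 0.33 and Ccna2 at 3.65 ± 0.30.

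E2f1 went the other way. It was at 9.81, 8.32, 12.6 and 9.96 CPM in control satellite cells and at 11.9, 11.8, 10.0 and 13.2 CPM in control FAPs at day 3, with ranges that overlapped. At day 7 it was at 17.7, 11.4, 10.4 and 14.2 CPM against 16.9, 16.8, 12.4 and 19.4 CPM. The paired fit gave -0.33 ± 0.11 at day 3 (adjusted p = 0.0314) and -0.72 ± 0.17 at day 7 (adjusted p = 0.0127). Scaling by library totals alone ended both calls (-0.21, adjusted p = 0.121, and -0.30, adjusted p = 0.175), as did leaving out any of 3 mice at day 3 or mouse 3 at day 7 (-0.60, adjusted p = 0.0507).

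**Figure D2:**
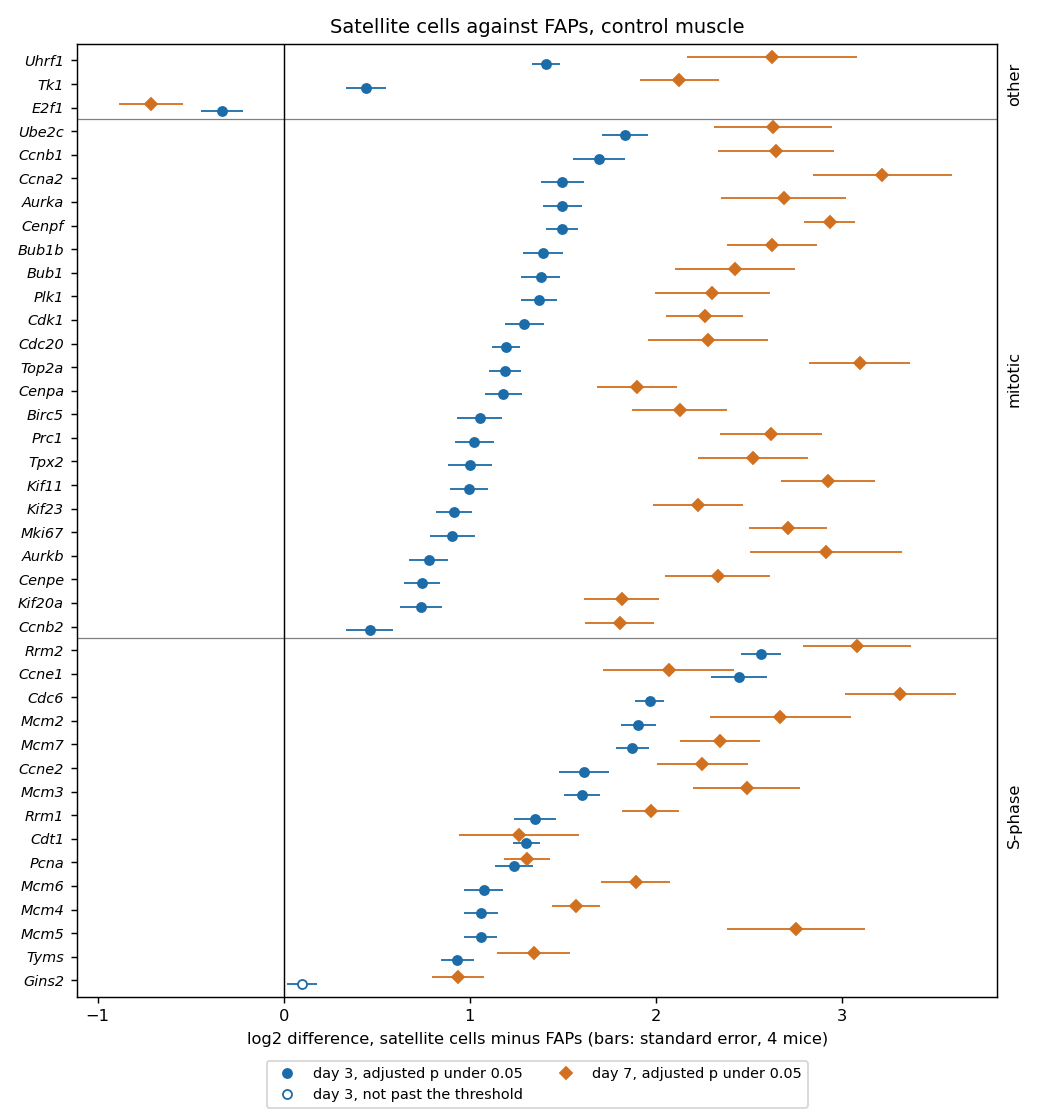
Log2 difference (horizontal axis) between satellite cells and FAPs of control muscle for each of the 40 genes, at day 3 (circles) and day 7 (diamonds), with the SE from the paired fit of 4 mice; open symbols are genes not called. All genes but E2f1 lie to the right of 0, and the mitotic genes lie further right at day 7 (0.46 to 1.83 at day 3, 1.81 to 3.22 at day 7).

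The same comparison in BAT muscle called 37 of the 40 higher and none lower at day 3 (66.5% of all genes were called, 31.1% higher and 35.4% lower), and 39 higher and 1 lower at day 7 (49.9% of all genes, 24.5% and 25.3%). Without the macrophage-rich libraries and their partners 38 of the 40 were called at day 3, and 39 in control muscle. Without mouse 5 the count in BAT muscle at day 7 was 39 higher and 1 lower, as with it. Gins2 (0.09 ± 0.10), Ccnb2 (0.28 ± 0.11, adjusted p = 0.0579) and E2f1 (-0.40 ± 0.20) were the genes not called at day 3. The largest differences were again those of Rrm2 (2.45 ± 0.11) and Ccne1 (2.41 ± 0.17) at day 3, and those of Ccna2 (2.95 ± 0.19) and Rrm2 (2.85 ± 0.22) at day 7. E2f1 was lower in satellite cells at day 7 (-0.77 ± 0.20, adjusted p = 0.0139), a call that library totals alone ended (-0.33, adjusted p = 0.195). Leaving out mouse 1a or mouse 1b ended it as well (-0.65, adjusted p = 0.0682, and -0.67, adjusted p = 0.0725).

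Other genes of the same processes, none of them among the 40, were counted on lists set by role. Like the 40, these lists were chosen with earlier results of these data known. Of 36 other replication genes, 35 were called higher in control satellite cells on each day, and none was called lower. Pola2, a subunit of the primase complex, differed most at day 3 (2.49 ± 0.11), and the exonuclease gene Exo1 differed most at day 7 (3.46 ± 0.60). These counts stand beside the 35.8% and 22.5% of all genes called higher. Of 48 other mitosis genes, 45 were called higher at day 3, and 46 higher and 1 lower at day 7. The gene called lower was Pttg1, which encodes securin (-0.48 ± 0.15, adjusted p = 0.0368). Among 15 regulators of the E2F, Rb and DREAM families, 11 were called higher and 2 lower at day 3, where 71.7% of all genes were called. E2f2, a further activator E2F, was 5.50 ± 0.16 higher in satellite cells, and the repressor-type family member E2f8 was 2.92 ± 0.22 higher. The 2 called lower were E2f5 (-1.21 ± 0.27) and Rbl2 (-0.62 ± 0.12), which encodes the pocket protein p130 of resting cells.

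The next comparison asked how the genes changed from day 3 to day 7 within each cell type. In control satellite cells 35 of the 40 fell and none rose, where 59.4% of all genes were called, 29.8% lower and 29.7% higher. In control FAPs 36 fell and 1 rose, where 23% were called, 11.4% lower and 11.5% higher. The median change of the 40 was -0.83 in satellite cells and -1.89 in FAPs, beside 0.03 and 0.09 over all genes. Day, mice and count table cannot be told apart, since each day had its own mice and its own deposited table. Marker sums of other cells moved with the day in control satellite cells. The 4 pericyte genes summed to 9.50 to 38.3 CPM at day 3 and 381 to 1520 CPM at day 7, the 4 Schwann cell genes to 17.0 to 65.5 CPM and 116 to 734 CPM, and the 7 FAP genes to 193 to 707 CPM and 1460 to 3743 CPM. Of the FAP genes, Pdgfra had a median of 0.77 CPM at day 3 and 1.90 CPM at day 7. Ly6a had medians of 4.75 and 5.10 CPM, so most of the rise lay in other genes of that list. The part of these sums in the fall was not tested. Without control satellite cell replicate 3, the day 3 library with 2114 CPM of macrophage genes, 32 of the 40 fell, and 36 fell without the day 7 library of mouse 5.

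All 15 S-phase genes fell in control satellite cells. Rrm2 fell most, from 751, 692, 838 and 875 CPM at day 3 to 341, 243, 312 and 314 CPM at day 7, a change of -1.74 ± 0.12 (adjusted p = 4.36e-06). Ccne2, cyclin E2, went from 60.4, 78.1, 65.3 and 61.7 CPM to 34.1, 20.9, 49.8 and 35.1 CPM (-1.30 ± 0.22). Pcna went from 218, 235, 213 and 204 CPM to 138, 90.8, 168 and 127 CPM (-1.10 ± 0.17). The days did not overlap for these 3 genes. The helicase subunits changed less, from -0.46 ± 0.15 for Mcm6 to -0.87 ± 0.11 for Mcm7. Mcm2 went from 171, 156, 193 and 245 CPM to 142, 141, 145 and 153 CPM, and Mcm5 from 189, 171, 210 and 242 CPM to 154, 146, 154 and 156 CPM. All 4 day 7 values of each lay close together and below all 4 of day 3.

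The mitotic genes split in control satellite cells, with 18 of 22 called lower. Birc5, the survivin subunit of the chromosomal passenger complex, fell most (-1.79 ± 0.17, adjusted p = 2.35e-05), from 185, 194, 211 and 178 CPM to 71.5, 51.2, 96.2 and 67.7 CPM. Ccnb1 fell from 247, 280, 238 and 240 CPM to 89.4, 79.1, 167 and 98.8 CPM (-1.58 ± 0.22). Cdk1 fell from 288, 314, 298 and 255 CPM to 164, 104, 218 and 146 CPM (-1.24 ± 0.20). The groups did not overlap for any of the 3, and Plk1 (-1.46 ± 0.22) and Cdc20, the activator of the anaphase-promoting complex (-0.94 ± 0.15), fell as well. By contrast, Mki67, Top2a, the spindle motor Kif11 and the midzone protein gene Prc1 were not called. Mki67 was at 89.5, 73.5, 99.0 and 98.9 CPM at day 3 and at 110, 60.7, 119 and 88.9 CPM at day 7 (-0.29 ± 0.18, adjusted p = 0.18). Top2a was at 310, 292, 285 and 308 CPM and then at 316, 275, 529 and 293 CPM (-0.12 ± 0.20, adjusted p = 0.624). The CPM means of Mki67 (90.2 and 94.7), Top2a (298 and 353) and Kif11 (64.0 and 68.5) were higher at day 7 although the TMM-scaled estimates were below 0, so the direction of these 3 depends on the scaling.

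TMM scaling bore on this comparison as a whole. With library totals alone the median of all genes in the satellite cell day comparison was 0.39 in control and 0.37 in BAT muscle instead of 0.03 and 0.11, and 26 and 24 of the 40 were called lower instead of 35 and 29. Library totals also raised the median of all genes from 0.05 to 0.47 between the cell types at day 7 in control muscle. None of the 40 that was called in a comparison changed its sign there with the scaling.

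In control FAPs all 22 mitotic genes fell, and 12 of the 15 S-phase genes did. Birc5 again fell most (-2.55 ± 0.40, adjusted p = 0.00302), from 100, 81.3, 66.2 and 96.6 CPM to 7.83, 9.47, 29.7 and 9.09 CPM. Tk1, the thymidine kinase of the nucleotide salvage pathway, fell by 2.28 on the log2 scale (SE 0.31), from 78.8, 73.8, 56.4 and 95.6 CPM to 11.1, 11.4, 26.7 and 10.5 CPM. Mki67 fell from 65.5, 33.7, 32.5 and 52.4 CPM to 7.87, 6.03, 19.1 and 13.0 CPM (-1.94 ± 0.33), with no overlap of the days. Top2a went from 135, 123, 102 and 124 CPM to 21.3, 29.2, 78.3 and 15.9 CPM (-1.67 ± 0.43). In most of these genes the third value, the library of mouse 5, lay well above the other 3 of day 7. Without it the mitotic genes of control FAPs at day 7 summed to 220 ± 24.5 CPM (n = 3) instead of 330 ± 221 CPM, and the S-phase genes to 315 ± 46.5 CPM instead of 381 ± 137 CPM. The fit without it called 37 of the 40 lower and 1 higher, and moved Birc5 to -3.20 ± 0.20 and Tk1 to -2.70 ± 0.20. Marker sums moved with the day in control FAPs too: the pericyte genes from 21.8 to 33.1 CPM at day 3 to 43.0 to 78.9 CPM at day 7, the 5 erythroid genes from 3.91 to 10.2 CPM to 26.3 to 74.8 CPM, and the 5 tenocyte genes from a median of 1150 CPM to one of 3615 CPM. Their part in the change was not tested. The S-phase genes not called were Mcm2 (-1.13 ± 0.41, adjusted p = 0.066), Cdt1 (-0.45 ± 0.34) and Ccne1 (-0.34 ± 0.36). E2f1 was called higher at day 7 (0.55 ± 0.18, adjusted p = 0.0477), and 11 of the alternatives tried ended that call (adjusted p up to 0.135).

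In BAT muscle the same comparison called 29 of the 40 lower in satellite cells and 37 lower in FAPs, and none higher in either. Over all genes 52.9% were called in satellite cells (24.4% lower, 28.5% higher) and 22.9% in FAPs (12.6% lower, 10.3% higher). Without BAT satellite cell replicate 4 and BAT FAP replicate 1, the libraries rich in macrophage genes, 31 and 37 of the 40 were called, and without the day 7 libraries of mouse 5, 34 were called lower in satellite cells, and 37 lower and 1 higher in FAPs. In BAT satellite cells the pericyte genes summed to 8.98 to 40.6 CPM at day 3 and 599 to 1233 CPM at day 7, the Schwann cell genes to 15.5 to 64.6 CPM and 96.4 to 481 CPM, and the FAP genes to 184 to 1451 CPM and 1613 to 2708 CPM. The medians of the FAP genes Pdgfra (4.01 and 1.87 CPM) and Ly6a (6.47 and 6.02 CPM) did not rise with that sum. In BAT FAPs the pericyte genes summed to 18.2 to 27.3 CPM and 54.4 to 66.9 CPM. The part of these sums in the change was not tested. Rrm2 (-1.67 ± 0.16) and Plk1 (-1.54 ± 0.34) changed most in BAT satellite cells, and Birc5 (-2.33 ± 0.34) and Plk1 (-2.16 ± 0.44) in BAT FAPs. Of the mitotic genes 13 of 22 were called lower in BAT satellite cells. Those not called were Mki67, Top2a, Tpx2, Ccna2, Aurkb, Cenpe, Cenpf, Kif11 and Prc1, with estimates between -0.43 (Tpx2) and 0.04 (Top2a). Of these, Ccna2, Cenpf, Kif11, Mki67, Prc1 and Top2a had a higher CPM mean at day 7 although all but Top2a were fitted below 0, as did the S-phase gene Mcm6, so these directions depend on the scaling.

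**Figure D3:**
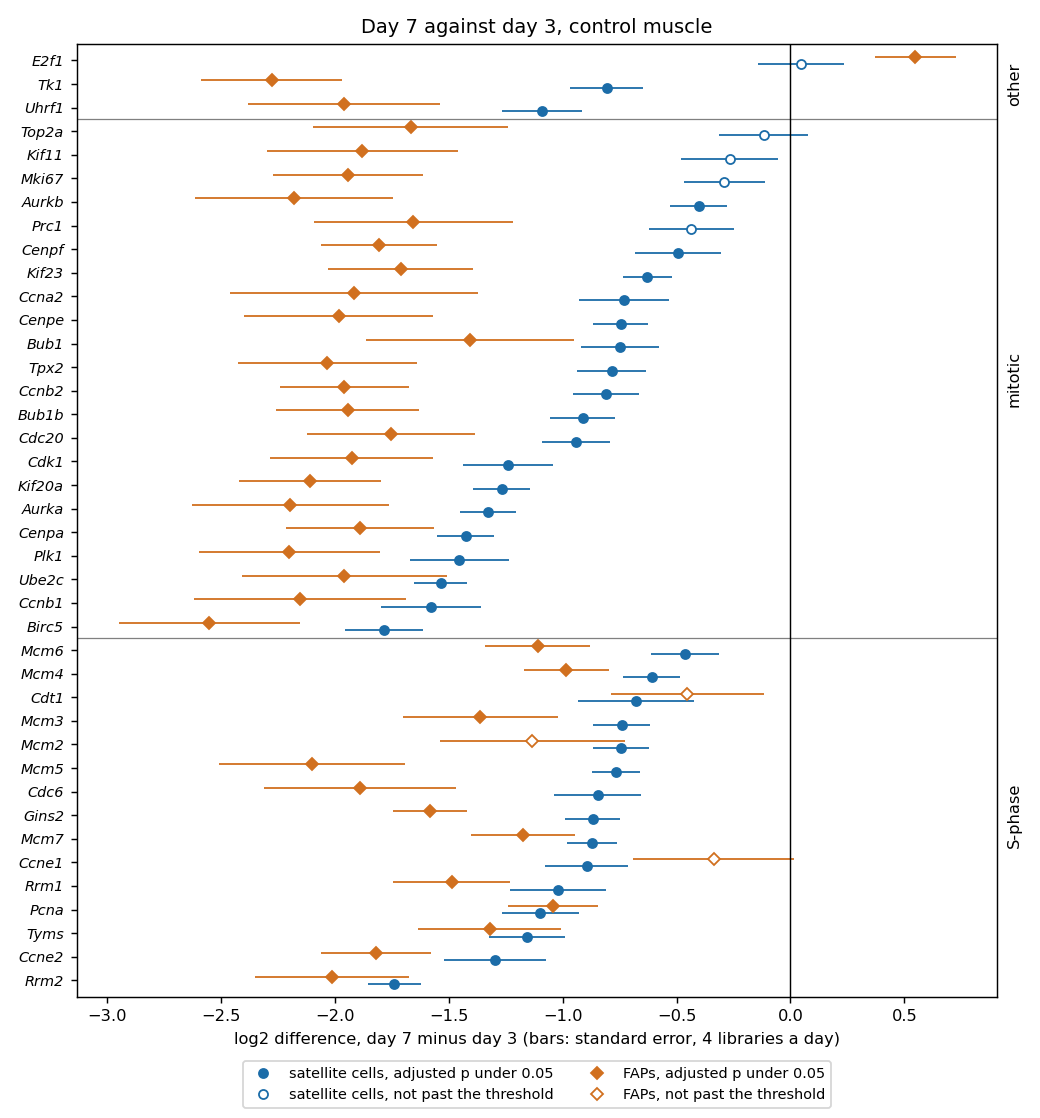
Log2 difference (horizontal axis) between day 7 and day 3 in control muscle for each of the 40 genes, in satellite cells (circles) and FAPs (diamonds), with the SE from fits of 4 libraries a day; open symbols are genes not called. In the mitotic set the diamonds (-2.55 to -1.41) lie left of the circles (-1.79 to -0.12), while the plain CPM means of Mki67, Top2a and Kif11 in satellite cells are higher at day 7.

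Whether the day change itself differed between the cell types was tested in 1 fit over the 16 control libraries. For 23 of the 40 the day change was higher (less negative) in satellite cells than in FAPs, and for none was it lower. Of the 18069 genes tested 23.8% were called, 15.4% in that direction and 8.39% in the other. These were 16 of the 22 mitotic genes, 6 of the 15 S-phase genes (Mcm4, Mcm5, Mcm6, Rrm1, Gins2 and Cdc6), and Tk1. The median difference was 1.29 for the mitotic genes and 0.64 for the S-phase genes, beside 0.12 over all genes. Aurkb, the kinase of the chromosomal passenger complex, differed most (2.14 ± 0.47, adjusted p = 0.00951). It was at 54.0, 59.1, 79.7 and 75.4 CPM at day 3 and at 67.9, 55.9, 63.3 and 71.7 CPM at day 7 in satellite cells. In FAPs it went from 45.5, 32.6, 26.1 and 41.2 CPM to 3.35, 7.60, 15.2 and 3.98 CPM. Kif11 (1.94 ± 0.29), Top2a (1.93 ± 0.31), Mki67 (1.82 ± 0.26), Ccna2 (1.73 ± 0.43) and Mcm5 (1.71 ± 0.42) followed. Pcna (0.09 ± 0.15), Cdt1 (-0.02 ± 0.37) and Ccne1 (-0.37 ± 0.40) had estimates close to 0 or below it and were not called. Without the mouse as a block 12 of the 40 were called instead of 23, all 12 among the 23, and without the mouse that gave the macrophage-rich control library 18 were called. Without mouse 5 there were 32, with Aurkb at 2.57 ± 0.36 and Kif11 at 2.17 ± 0.25.

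Between the sets, the mean log2(CPM + 1) of the mitotic genes was below that of the S-phase genes by 0.28 in control satellite cells at day 3 (-0.28 ± 0.074) and by 0.27 at day 7 (-0.27 ± 0.14). In control FAPs the same difference was 0.013 ± 0.13 at day 3 and -0.66 ± 0.35 at day 7 (SD, n = 4). The FAP values at day 3 were between -0.0919 and 0.211, and those at day 7 were -0.65, -0.92, -0.17 and -0.88, so the days did not overlap. The library of mouse 5 was again the highest of day 7, and without it the mean was -0.82 ± 0.15 (n = 3). These differences depend on exon length and are read between groups only.

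The lists of other replication and mitosis genes were counted over the days as well. In control satellite cells 26 of 36 replication genes and 36 of 48 mitosis genes fell and none rose. In control FAPs 30 of 36 and 43 of 48 fell and none rose. Over all genes 29.8% were called lower in satellite cells and 11.4% in FAPs. Pola2 changed most in satellite cells (-2.27 ± 0.19), together with Dut, the dUTPase (-1.99 ± 0.14), and Spc24, a kinetochore gene, changed most of the mitosis genes in both cell types (-1.58 ± 0.18 in satellite cells and -2.60 ± 0.39 in FAPs). The difference between the cell types was called in the same direction for 38 of 48 mitosis genes and for 16 of 36 replication genes, and in the other direction for 1 replication gene, Pola2 (-0.87 ± 0.19), beside 15.4% and 8.39% of all genes. Of the 15 regulators, 4 were called higher and 5 lower in control satellite cells, where 59.4% of all genes were called. In control FAPs 1 was higher and 4 lower, where 23% were called. Rbl2 rose in both cell types (1.16 ± 0.13 in satellite cells and 0.84 ± 0.16 in FAPs), and Lin52 rose in satellite cells (0.83 ± 0.18). E2f4, a repressor E2F, fell most in satellite cells (-1.83 ± 0.13), followed by E2f2 (-1.17 ± 0.20). E2f7 (-1.87 ± 0.40) and Rbl1 (-1.03 ± 0.29) fell in FAPs.

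The promoters are shown because most genes of both sets fell over the days in both cell types. Sequences of 300 bases, from 250 before to 50 after the transcription start, were taken from RefSeq (build GRCm38.p6, the assembly also named mm10) and matched 33 of the 40 genes. No entry was matched for Ccne2, Aurkb, Mcm4, Kif20a, Gins2, Ccna2 and Tpx2. The motifs searched on both strands were TTTGAA, the cell cycle homology region (CHR) through which MuvB complexes bind, CCAAT, the box bound by NF-Y, and 4 words of the E2F site, TTTGGCGC, TTTGCCGC, TTTCGCGC and TTTCCCGC. The 6 sequences below show both patterns and were chosen after the matches had been seen. They are written 5′ to 3′ on the strand of the gene with matches in capitals, where CCAAT reads ATTGG and TTTGAA reads TTCAAA on the other strand; runs of 12 capitals in Mcm5 and Mcm6 are 2 overlapping E2F matches. Their positions are chr11:99024140-99024439 (Top2a, minus strand), chr7:122159185-122159484 (Plk1, plus), chr9:70421505-70421804 (Ccnb2, minus), chr10:69352863-69353162 (Cdk1, minus), chr8:75109259-75109558 (Mcm5, plus) and chr1:128359656-128359955 (Mcm6, minus).
Top2a: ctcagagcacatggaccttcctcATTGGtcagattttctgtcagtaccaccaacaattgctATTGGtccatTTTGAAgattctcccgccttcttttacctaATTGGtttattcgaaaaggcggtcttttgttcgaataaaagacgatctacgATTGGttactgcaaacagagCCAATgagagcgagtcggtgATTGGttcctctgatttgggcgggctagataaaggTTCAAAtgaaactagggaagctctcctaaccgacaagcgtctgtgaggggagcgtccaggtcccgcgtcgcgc
Plk1: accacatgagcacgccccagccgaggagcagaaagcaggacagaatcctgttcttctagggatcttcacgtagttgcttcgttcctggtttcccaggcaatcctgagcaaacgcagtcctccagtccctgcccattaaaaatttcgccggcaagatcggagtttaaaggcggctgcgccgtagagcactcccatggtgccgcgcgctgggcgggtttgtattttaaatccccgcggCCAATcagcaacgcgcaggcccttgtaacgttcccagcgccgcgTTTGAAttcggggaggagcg
Ccnb2: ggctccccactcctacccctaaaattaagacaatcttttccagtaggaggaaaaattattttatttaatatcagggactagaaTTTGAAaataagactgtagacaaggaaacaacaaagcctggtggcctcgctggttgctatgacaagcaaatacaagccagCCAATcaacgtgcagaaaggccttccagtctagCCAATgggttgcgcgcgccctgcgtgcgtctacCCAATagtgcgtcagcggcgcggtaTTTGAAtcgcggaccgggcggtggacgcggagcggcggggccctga
Cdk1: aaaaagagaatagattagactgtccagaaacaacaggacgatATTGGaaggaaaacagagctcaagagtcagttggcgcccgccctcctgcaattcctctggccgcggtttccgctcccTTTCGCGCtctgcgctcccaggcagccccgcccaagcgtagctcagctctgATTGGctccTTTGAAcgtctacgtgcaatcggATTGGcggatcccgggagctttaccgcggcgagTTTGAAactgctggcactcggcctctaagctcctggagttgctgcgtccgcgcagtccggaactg
Mcm5: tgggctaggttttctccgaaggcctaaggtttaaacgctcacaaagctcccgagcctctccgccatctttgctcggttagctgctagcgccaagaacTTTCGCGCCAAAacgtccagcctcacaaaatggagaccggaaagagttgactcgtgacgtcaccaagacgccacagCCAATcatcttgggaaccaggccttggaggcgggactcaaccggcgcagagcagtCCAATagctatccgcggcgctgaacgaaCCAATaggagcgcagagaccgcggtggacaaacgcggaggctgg
Mcm6: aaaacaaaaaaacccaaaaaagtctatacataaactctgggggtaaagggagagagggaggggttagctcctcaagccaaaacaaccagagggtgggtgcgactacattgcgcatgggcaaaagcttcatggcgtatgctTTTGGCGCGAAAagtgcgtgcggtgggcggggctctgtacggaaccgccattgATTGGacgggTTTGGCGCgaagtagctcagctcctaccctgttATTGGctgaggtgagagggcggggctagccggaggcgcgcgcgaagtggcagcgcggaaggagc

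Of the 18 mitotic genes with a promoter, 14 (77.8%) held the CHR, against 1 of 12 S-phase genes (Mcm2; 8.33%) and 18.1% of all 27025 promoters. In 13 of the 14 a CHR match began within 50 bases of the start, a distance chosen after the matches had been seen. Among all promoters with the CHR, 27.2% had such a match. Top2a, Plk1, Ccnb2 and Cdk1 above are examples, and Ccnb1, Bub1, Birc5 and Cenpe were the 4 mitotic genes without a CHR match. The E2F words were found in 6 of 12 S-phase promoters (50%), those of Mcm3, Mcm5, Mcm6, Mcm7, Cdc6 and Cdt1, against 1 of 18 mitotic promoters (Cdk1; 5.56%) and 2.32% of all promoters. CCAAT was found in 17 of 18 mitotic promoters and 8 of 12 S-phase promoters, and in 37.9% of all. Of the other genes on the lists, the CHR was found in 26 of 40 mitosis promoters and 7 of 27 replication promoters, and the E2F words in 4 and 9 of them. Rrm2, whose change over the days in satellite cells was the largest of the S-phase genes, held neither a CHR nor an E2F word. Birc5, the largest of the mitotic genes in control satellite cells, held none of the motifs searched. Plk1, the largest of the mitotic genes in BAT satellite cells, held a CHR and a CCAAT. How the motifs relate to the size of a change was not tested. A match is a description of these letters and shows no binding.

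**Figure D4:**
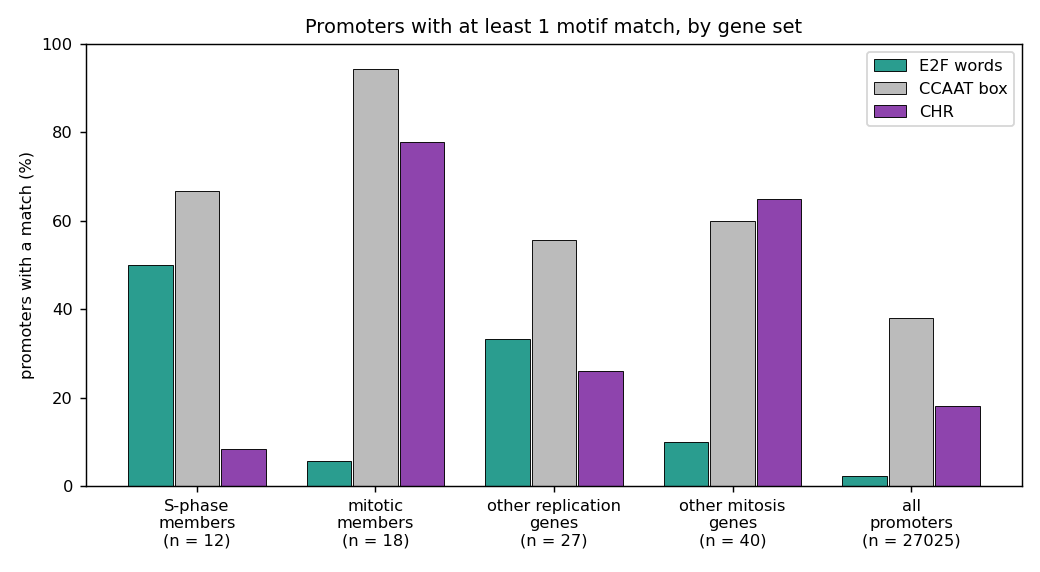
Share of promoters (vertical axis, percent, from 0) with at least 1 match to the E2F words, CCAAT or the CHR in the S-phase genes (n = 12), the mitotic genes (n = 18), the lists of other replication (n = 27) and mitosis genes (n = 40), and all 27025 promoters. The CHR bar is highest in the mitotic genes (77.8%) and the E2F bar in the S-phase genes (50%).

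The main treatment comparison asked whether the brown fat graft moved these genes, within mice. None of the 40 was called in satellite cells or FAPs at either day. Over all genes 0% were called in satellite cells at day 3 and in FAPs at day 7, 0.0178% (3 genes) in satellite cells at day 7 and 0.0188% (3 genes) in FAPs at day 3. An unadjusted p under 0.05 was reached by 4 of the 40 in satellite cells at day 3 (3.02% of all genes), 2 in satellite cells at day 7 (7.48%), 1 in FAPs at day 3 (4.58%) and 13 in FAPs at day 7 (4.89%). DESeq2 also called none of the 40 in any of the 4, with 1 of them given no adjusted p in FAPs at day 7. Without the macrophage-rich libraries at day 3, or without mouse 5 at day 7, edgeR again called none of the 40. The 95% confidence intervals of all 40 lay within -0.39 and 0.45 in satellite cells at day 3, within -0.71 and 0.56 in satellite cells at day 7, within -0.71 and 0.58 in FAPs at day 3 and within -0.54 and 1.08 in FAPs at day 7.

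At day 3 the summed levels were close between the muscles. The S-phase genes summed to 3336 ± 231 CPM in BAT satellite cells against 3188 ± 268 CPM in controls, and to 1114 ± 120 CPM against 1043 ± 148 CPM in FAPs. The mitotic genes summed to 3124 ± 261 CPM against 3227 ± 153 CPM in satellite cells, and to 1265 ± 168 CPM against 1337 ± 249 CPM in FAPs. In every case the ranges overlapped. Without the macrophage-rich library BAT FAPs had 1055 ± 29.2 CPM of S-phase and 1193 ± 108 CPM of mitotic genes, and BAT satellite cells 3280 ± 247 CPM and 3085 ± 305 CPM (n = 3). Within mice, the mean log2 of the mitotic genes minus that of the S-phase genes was lower in the BAT muscle in all 4 mice in satellite cells (-0.098 ± 0.083, SD) and in all 4 in FAPs (-0.17 ± 0.14), which is a description with no test. In FAPs it was -0.35 in mouse 2b, whose BAT library was rich in macrophage genes, and -0.065, -0.20 and -0.045 in the others. At day 7 the same difference was 0.084 ± 0.13 in satellite cells, above 0 in 3 of 4 mice, and -0.029 ± 0.011 in FAPs, below 0 in 4 of 4. At day 3 the genes with the smallest p in satellite cells were Ube2c (-0.17 ± 0.06), Mcm3 (0.18 ± 0.06) and Mcm7 (0.15 ± 0.06). In FAPs they were the kinetochore genes Cenpf (-0.29 ± 0.12) and Cenpe (-0.27 ± 0.14), and Mcm3 (0.25 ± 0.13). Mcm3 was at 211, 178, 242 and 282 CPM in control and at 217, 222, 284 and 299 CPM in BAT satellite cells, higher in the BAT muscle of 4 of 4 mice while the groups overlapped.

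At day 7 in satellite cells, the S-phase sums were 2034 ± 238 CPM in BAT and 2017 ± 256 CPM in control muscle, and the mitotic sums 2355 ± 451 CPM and 2198 ± 495 CPM. The smallest p was that of Ccnb1, at 107, 116, 186 and 123 CPM in BAT and 89.4, 79.1, 167 and 98.8 CPM in control muscle. It was higher in the BAT muscle of 4 of 4 mice by 0.34 ± 0.10, with an adjusted p of 0.627 by edgeR. Cenpe (0.24 ± 0.11) and Cdk1 (0.22 ± 0.10) came next. Without the mouse of replicate 3 the mitotic sums were 2133 ± 96.2 CPM and 1963 ± 192 CPM (n = 3), and still overlapped.

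In FAPs at day 7 most estimates were on the side of the graft. Of the 40 genes 37 were fitted above 0, where 48.4% of all genes were, with a median of 0.27 beside -0.01 over all genes. The mean log2 level of the S-phase genes was higher in the BAT muscle of all 4 mice, by 0.21 in mouse 1a, 0.55 in mouse 1b, 0.12 in mouse 3 and 0.08 in mouse 5, and that of the mitotic genes by 0.19, 0.50, 0.10 and 0.05. Mouse 1b had the largest difference in both sets. Without it 2 of the 40 instead of 13 had an unadjusted p under 0.05 and the median was 0.16, and without the mouse as a block none of the 40 had one. In summed CPM the groups overlapped widely with mouse 5, which was high in both, at 370 ± 205 CPM of mitotic genes in BAT and 330 ± 221 CPM in control FAPs. Without mouse 5 they were at 269 ± 34.9 CPM and 220 ± 24.5 CPM (n = 3), and overlapped less (231 to 300 CPM and 201 to 247 CPM). The satellite cell genes also summed higher in the BAT FAPs of all 4 mice (212 against 199 CPM in mouse 1a, 339 against 243 in mouse 1b, 616 against 539 in mouse 3 and 948 against 793 in mouse 5), and the erythroid genes lower (7.54 to 24.2 CPM against 26.3 to 74.8 CPM). Pax7, Myod1 and Myf5 were each at most 0.197 CPM in the day 7 FAPs of mice 1a, 1b and 3. In mouse 5, Myod1 (1.999 against 3.627 CPM) and Pax7 (0.318 against 0.544 CPM) were lower in BAT FAPs, and Myf5 was higher. Nearly all of the satellite cell sums thus lay in other genes. The part of the satellite cell and erythroid sums in the result was not tested. Top2a was at 28.8, 37.2, 86.1 and 22.6 CPM in BAT and at 21.3, 29.2, 78.3 and 15.9 CPM in control FAPs, higher in 4 of 4 mice (0.37 ± 0.10, adjusted p = 0.953). Tpx2 (0.50 ± 0.16) and Cdc6 (0.63 ± 0.20) came next, with the same adjusted p. Genes of the same fit are not independent, and the count of estimates above 0 has no test.

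**Figure D5:**
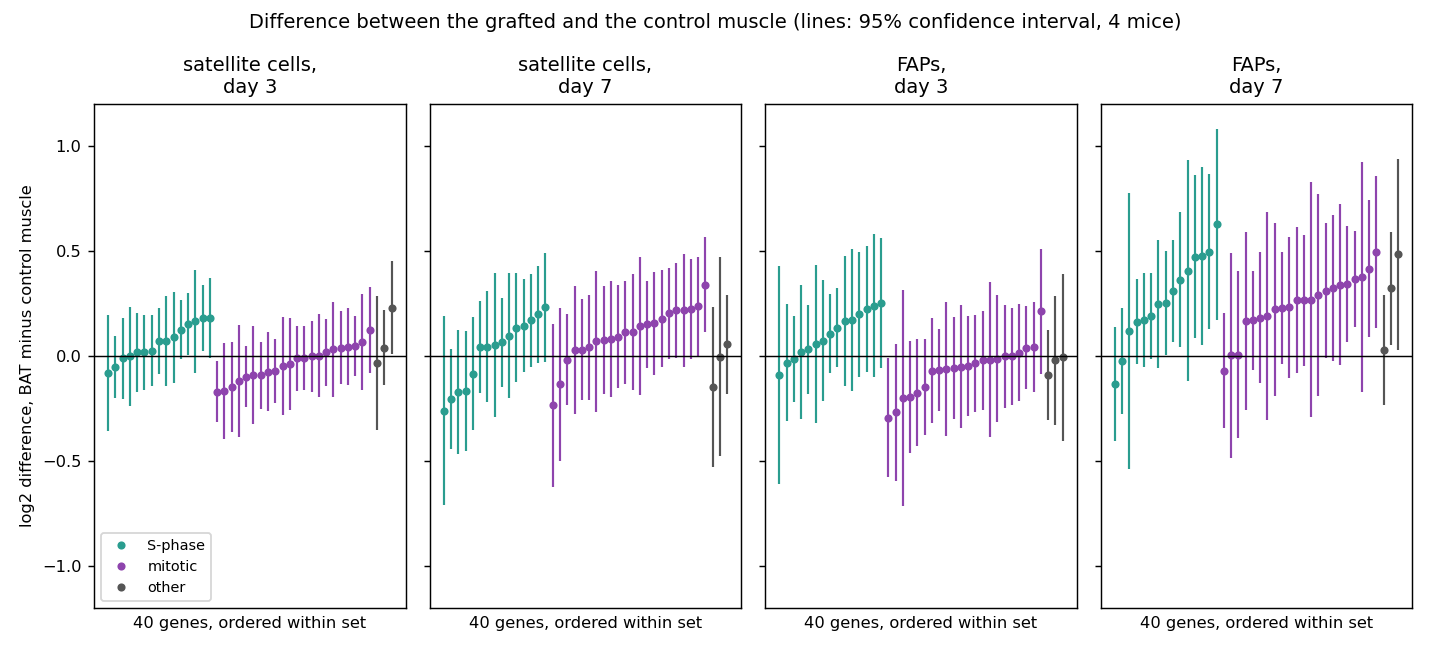
Log2 difference between the BAT and the control muscle (vertical axis) for the 40 genes in 4 comparisons, with 95% confidence intervals from the paired fits of 4 mice; genes are ordered by estimate within the S-phase, mitotic and other sets. Most intervals cover 0, and in FAPs at day 7 the points lie mostly above it (median 0.27).

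Whether the effect of the graft differed between days or cell types was tested directly, and none of the 40 was called by edgeR or DESeq2 in any of the 4 tests (DESeq2 gave 2 of them no adjusted p between the days in satellite cells). With no filter on low counts edgeR called 1, Mcm3 between the cell types at day 7 (-0.66 ± 0.18, adjusted p = 0.0359). Unadjusted p values under 0.05 were found for 4 of the 40 between the days in satellite cells (5.12% of all genes), 11 between the days in FAPs (3.35%), none between the cell types at day 3 (3.15%) and 5 between the cell types at day 7 (6.68%). Over all genes 0.0229% were called between the cell types at day 3 and 0% in the other 3 tests. Ccnb1 had the smallest p between the days in satellite cells (0.42 ± 0.14, adjusted p = 0.904) and Cenpf in FAPs (0.64 ± 0.19, adjusted p = 1). Between the cell types at day 7 Mcm3 had the smallest p (-0.65 ± 0.24, adjusted p = 0.725), at 130, 222, 139 and 132 CPM in BAT and 168, 175, 171 and 177 CPM in control satellite cells and 29.4, 38.2, 40.3 and 22.5 CPM against 12.6, 34.4, 35.8 and 17.9 CPM in FAPs. None of the other 36 replication genes, 48 mitosis genes or 15 regulators was called in any of the 4 comparisons of BAT with control muscle.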

How the data were processed

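RNA of sorted satellite cells and FAPs was sequenced, and the authors deposited expected counts per gene in 2 tables, 1 per day, per the file headers. The submitters' processing notes name DRAGEN and mm10; no version, annotation or strand setting is given in the sources used here. Of the values above 0, 71.3% (day 3) and 72.2% (day 7) were whole. After 287 repeated entries were removed, 55487 genes remained, counts were rounded (library totals moved by at most 0.00034%), and gene models were taken from GENCODE M21. The 40 genes and all lists were chosen with earlier results of these data known.

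Groups came from the labels. edgeR 4.0.16 in R 4.3.3 was used with limma 3.58.1: filterByExpr (minimum count 10), TMM scaling, the quasi-likelihood F test and Benjamini-Hochberg adjustment over all genes tested, at a threshold of 0.05. All adjusted p-values in the text are from this fit unless DESeq2 1.42.0 is named. Comparisons within a mouse had the mouse as a block, and comparisons of days had none. The day 3 libraries without a mouse code were taken as 1 mouse, which is an inference, and unnumbered libraries were called replicate 4. Per the labels, paired muscles came from the same mouse. After subtraction of the group mean, paired libraries correlated at 0.0358 on average (satellite cells, day 3) to 0.623 (FAPs, day 7) over 16281 genes. In satellite cells at day 3 the pairs correlated at -0.347 to 0.477, and 1 of 4 control libraries correlated best with its own partner. The pairing there rests on the labels and on the inference above. No replicates were duplicates: the smallest chi-square per degree of freedom among 48 pairs within groups was 15.5. The tests were checked on simulated data.

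Named genes were a set fixed by role, plus the 2 called genes with the largest change each way and those opposite to the majority per comparison, or the 3 with the smallest p where none was called. Genes of the other lists were named from among the 2 largest each way, and not all of these were named. Set levels used log2(CPM + 1). Where RefSeq lists several promoters for a gene, the first was used. Alternatives were RLE scaling, library totals alone, no filter, DESeq2, the block added or removed, single libraries or mice left out, and the macrophage-rich libraries left out.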

Additional observations from a re-analysis of the deposited data

Results flagged for a closer look

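Each check took 1 gene or set level in 1 group of 4 libraries. The checks share libraries and genes, so they are not independent. In 9 of 136 such checks, 1 library stood apart from the other 3 by Dixon's criterion, where chance flags about 1 in 20, or 6.8. Of these 9 values, 8 came from replicate 3 of day 7 (mouse 5), whose Xist level goes against its label. In its BAT FAPs the mitotic genes summed to 675 CPM (231 to 300.2 in the other 3), Rrm2 was at 72.3 CPM (22.9 to 27.6) and Ccnb1 at 35.7 CPM (8.67 to 12.0). In its control FAPs the mitotic genes summed to 659 CPM (201 to 247), Rrm2 was at 55.4 CPM (18.9 to 22.7), Ccna2 at 22.5 CPM (3.18 to 5.45) and Cdk1 at 56.0 CPM (15.5 to 19.4). In its control satellite cells Top2a was at 529 CPM (275 to 316). The remaining value was Plk1 in BAT satellite cells of day 7, at 103 CPM in replicate 2 (41.8 to 45.1 in the others).

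The change from day 3 to day 7 in control muscle differed between satellite cells and FAPs for 23 of the 40 genes by an interaction test in edgeR. Among them, the log2 difference of the changes was 1.82 for Mki67, 1.93 for Top2a, 1.73 for Ccna2, 0.99 for Cdk1, 2.14 for Aurkb, 1.94 for Kif11 and 1.71 for Mcm5.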

How the results depend on the processing

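Over the 17 comparisons, 190 of 192 alternatives gave a count of called genes among the 40 within 1.5 times the reported one. The difference of the day change between the cell types fell from 23 to 12 genes without the mouse as a block; the cause was not tested. The block changed no other count by over 1.5 times. The other exception was the difference of the graft effect between the cell types at day 7, where 1 gene instead of 0 was called with no filter on low counts (Mcm3, -0.66 ± 0.18, adjusted p = 0.0359 by edgeR). Leaving out single mice gave 37 to 39 and 39 to 40 called genes between the cell types in control muscle at day 3 and day 7, and 37 to 38 and 38 to 40 in BAT muscle. Leaving out single libraries gave 31 to 36 (control) and 27 to 34 (BAT) between the days in satellite cells, and 32 to 38 and 29 to 38 in FAPs. Leaving out single mice gave 17 to 32 for the difference of the day change and 0 in every comparison that involves the graft. Single genes were followed under the alternatives only where their size, direction or p in a comparison had them named. The set fixed by role was not followed otherwise. Of these 510 values none reversed, 22 lost their call, all of E2f1, and 1 gained it.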
